A study of Homo sapiens with 4 samples.

Results

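The genes described here encode replacement histone variants, the histones that a cell can place into chromatin outside DNA replication. They are 9 named genes of the 63677 in the count files: the H2A variant genes H2AX, H2AZ1, H2AZ2, MACROH2A1, MACROH2A2 and H2AJ, the H3.3 genes H3-3A and H3-3B, and the linker histone gene H1-10. The rule picks them by name and uses no measured value, though it was written with earlier results of these data known. All 9 were found in the files. Total RNA had been sequenced, after removal of ribosomal RNA, from H929 cells, an established human line grown from a multiple myeloma, a cancer of plasma cells. They carried an ILF2 short hairpin RNA (shRNA; 2 libraries) or a non-silencing shRNA (2 libraries), so that both groups share the line, the transduction and a hairpin. The design text calls the replicates independent without saying at which step they were separated, and it does not say if the ILF2 shRNA was 1 hairpin sequence in both libraries. The p-values measure the spread between these samples, which may in part be technical.

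Most histone protein is made in S phase from clustered genes, whose transcripts lack introns and end in a conserved stem-loop instead of a poly(A) tail. Replacement variants are made throughout the cell cycle, mostly from single genes with introns and polyadenylated transcripts, and dedicated chaperones and remodelling complexes deliver them to particular sites. H2A.Z marks the nucleosomes around transcription start sites, H3.3 enters active genes, telomeres and heterochromatic repeats, H2AX is phosphorylated around DNA breaks, and macroH2A joins a histone fold to a large macro domain and is known from silent chromatin such as the inactive X chromosome.

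The libraries held 63459322 and 71359863 counted fragments with ILF2 shRNA and 72977082 and 71389341 with non-silencing shRNA. ILF2 itself had 107.0 and 114.3 CPM (fragment counts divided by the TMM-scaled library size, in the usual CPM unit) in the ILF2 shRNA libraries against 716.9 and 733.4 CPM in the non-silencing libraries, which gave a log2 fold change (log2FC, ILF2 shRNA over non-silencing) of -2.71 with an SE of 0.07 (edgeR adjusted p = 9.2e-39). All 9 plasma cell marker genes checked were at 1 CPM or more in every library, and they moved in both directions: MZB1, JCHAIN, CD38 and TNFRSF17 were called higher (log2FC 0.25 to 0.48), SLAMF7 and SDC1 lower (log2FC -0.26 and -0.24), and PRDM1, IRF4 and XBP1 did not pass. The B cell, myeloid and fibroblast markers summed to at most 0.763 CPM in any library, with CD22 and COL1A2 at 0. The T cell markers summed to 16.1 and 17 CPM with ILF2 shRNA and to 8.26 and 7.52 CPM with non-silencing shRNA, almost wholly from CD3E, while CD3D and CD2 stayed at or below 0.027 CPM. Of the 3 epithelial markers, KRT18 had 29.5 and 29.3 CPM with ILF2 shRNA against 24.3 and 23.3 CPM with non-silencing shRNA (log2FC 0.30; edgeR adjusted p = 0.0034), KRT8 was at or below 0.926 CPM, and EPCAM was at 0. Mitochondrial genes took 0.516% and 0.463% of fragments with ILF2 shRNA and 0.351% and 0.307% with non-silencing shRNA. The part of these shifts in the differences below was not tested.

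The 3′ end of H2AX is shown first, since it matched the pattern searched for the stem-loop of clustered genes. The stem-loop was searched as GGNNCTT, NT and NAGNGCC in a row, N being any base, on the gene's strand in the 500 bases after the stop codon of each gene's main transcript in GENCODE (GRCh37 genome, introns not removed). Among the 9 members, the H2AX window held a match, 50 bases after the stop codon. So did all 34 of the clustered H2A, H3 and H1 genes in that annotation, and 0.345% of 19736 protein-coding genes as a whole. The match of H2AX lies at chr11:118965608-118965623 (minus strand), and it is printed with those of a clustered H2A gene (H2AC4, chr6:26033326-26033341, minus strand), an H3 gene (H3C1, chr6:26021160-26021175, plus strand) and an H1 gene (H1-2, chr6:26055972-26055987, minus strand). Capitals mark the 16 bases of the match, and 5 flanking bases stand on each side. The 16 bases of H2AX matched the pattern but were not identical to those of any of these 34 clustered H2A, H3 and H1 genes.
H2AX: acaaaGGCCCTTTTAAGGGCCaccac
H2AC4: gcaaaGGCTCTTTTCAGAGCCaccta
H3C1: gcaaaGGCTCTTTTCAGAGCCaccac
H1-2: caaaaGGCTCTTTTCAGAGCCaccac
H2AX is known to give both stem-loop and polyadenylated transcripts, which the counts per gene do not separate. No match in the windows of the other members says only that these letters are not there.

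Promoter windows of RefSeq (GRCh38.p14, 250 bases before to 50 after a start) were found for all 9 members. CCAAT, the box bound by the factor NF-Y, was searched on both strands, where it reads ATTGG on the other strand. It occurred in 34.6% of all 35116 windows. The windows of H2AX, H2AZ2 and H3-3B held 4 matches each and those of H2AZ1 and H2AJ 3 each, while those of H1-10 and MACROH2A2 held 0. The 2 windows of MACROH2A1 held 0 and 2, and each of the 4 of H3-3A held 0 or 1. The boxes therefore stood both in members that were lower with ILF2 shRNA and in members that did not pass the test, as the windows of H2AX (chr11:119095416-119095715, minus strand), H2AZ2 (chr7:44848038-44848337, minus strand) and H3-3B (chr17:75779730-75780029, minus strand) show, with the matches in capitals.
H2AX: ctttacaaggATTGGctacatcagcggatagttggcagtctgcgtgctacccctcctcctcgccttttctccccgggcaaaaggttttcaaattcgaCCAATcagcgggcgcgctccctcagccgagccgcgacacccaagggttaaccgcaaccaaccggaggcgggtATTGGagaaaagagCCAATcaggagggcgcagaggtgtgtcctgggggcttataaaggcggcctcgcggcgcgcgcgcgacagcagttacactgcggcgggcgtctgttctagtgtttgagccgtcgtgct
H2AZ2: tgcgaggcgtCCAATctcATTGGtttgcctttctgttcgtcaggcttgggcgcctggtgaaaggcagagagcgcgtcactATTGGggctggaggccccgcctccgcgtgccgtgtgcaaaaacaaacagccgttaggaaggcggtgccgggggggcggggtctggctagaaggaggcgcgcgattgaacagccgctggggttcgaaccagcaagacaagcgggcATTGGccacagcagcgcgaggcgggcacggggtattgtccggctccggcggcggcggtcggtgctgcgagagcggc
H3-3B: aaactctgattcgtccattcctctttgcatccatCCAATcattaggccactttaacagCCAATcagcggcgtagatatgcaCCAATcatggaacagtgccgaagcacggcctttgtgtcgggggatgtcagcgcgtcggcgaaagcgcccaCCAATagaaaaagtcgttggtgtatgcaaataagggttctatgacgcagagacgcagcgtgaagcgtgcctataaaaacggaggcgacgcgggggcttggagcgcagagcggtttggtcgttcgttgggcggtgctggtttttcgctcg
A second motif, TTTNNCGC, a looser pattern than the core of E2F sites, was searched in the same way. A match to it need not be an E2F site. It occurred in 6.89% of all windows, once in the window of H3-3B and once in a window of MACROH2A1. The TATA motif TATAAA occurred in 11.5% of all windows and in those of H2AX, H2AZ1, H1-10 and H3-3B.

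Replacement variant transcripts were lower in the ILF2 shRNA cells or did not pass the test. MACROH2A1, H2AX, H2AZ2 and H1-10 fell, by 17.6% to 33.2%, and 0 members rose. H2AZ1, H3-3B, H2AJ and H3-3A were those that did not pass, and MACROH2A2 was not tested because it held 1 fragment in all 4 libraries. Thus 4 of 8 tested members were called, all lower, where the same fit called 20.3% of 19142 tested genes, 10.1% lower and 10.2% higher (edgeR's quasi-likelihood test, Benjamini-Hochberg adjusted p under 0.05). The median log2FC was -0.22 over the 8 tested members and near 0 over all tested genes. At an unadjusted p under 0.05, 6 members were lower, where 30.9% of the table passed in either direction, and DESeq2 called 5, H3-3B being the fifth. In 7 of the 8 both ILF2 shRNA libraries lay below both non-silencing libraries, the case for 28.0% of the whole tested table. In 0 of the 8 did both lie above, against 28.4% of that table. In RNA from a whole culture, fewer cells that express a gene and less RNA of it per cell cannot be told apart.

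**Figure D1:**
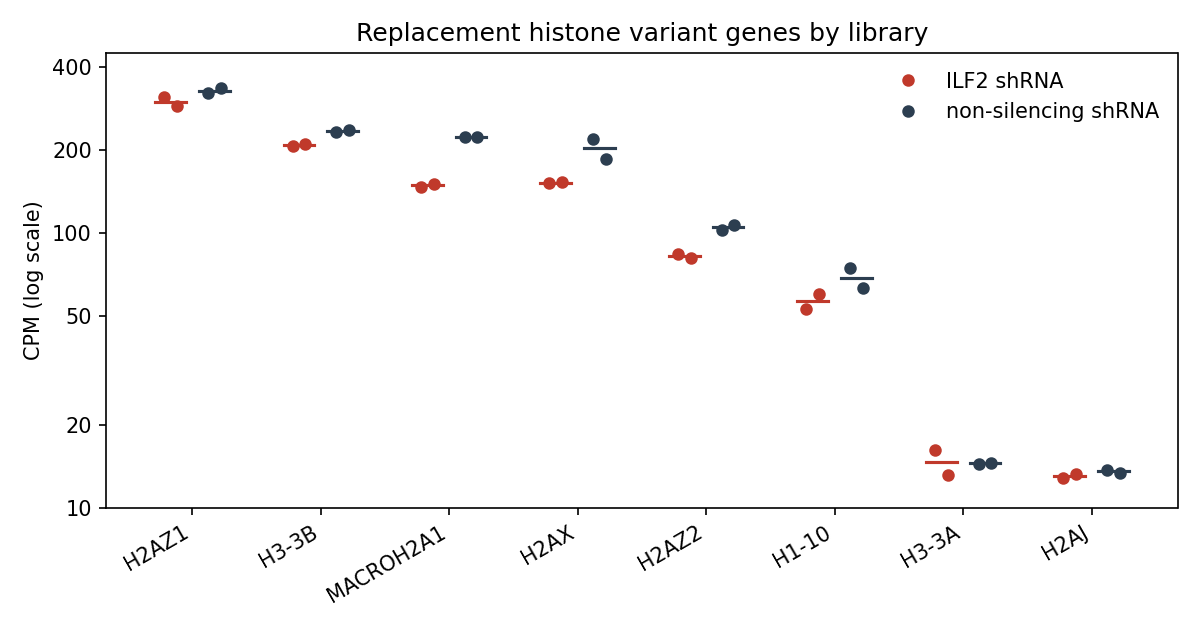
CPM of the 8 tested members (log scale) in each ILF2 shRNA library (red, left of each gene) and each non-silencing shRNA library (dark, right), with points for libraries and lines for the group means. MACROH2A1 shows the clearest gap, with 146.7 and 150.7 CPM with ILF2 shRNA below 222.8 and 222.4 CPM with non-silencing shRNA, and H3-3A is the member whose groups overlap.

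MACROH2A1 (ENSG00000113648; GRCh37 chromosome 5, 134669590 to 134735604, minus strand), which encodes macroH2A1.1 and macroH2A1.2 by alternative splicing, fell most. It had 9350 and 10432 fragments in the ILF2 shRNA libraries against 16507 and 16024 in the non-silencing libraries. Scaled by library, these were 146.7 and 150.7 CPM against 222.8 and 222.4 CPM. The groups lay far apart relative to the spread within each, with means of 149 ± 2.83 CPM and 223 ± 0.321 CPM (SD, n = 2 each). The log2FC was -0.58 (SE 0.07, 95% interval -0.72 to -0.45; edgeR adjusted p = 6.1e-10), the 127th smallest adjusted p among all tested genes. Counts per gene do not separate its splice forms. Chromosome 5 as a whole went the other way: the median log2FC of its 900 tested genes was 0.15, and 3.33% of them were called lower. MACROH2A1 lay 0.73 below that median, and 34 genes of the chromosome, itself included, had a value as low or lower.

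The pattern of MACROH2A1 over the 4 libraries was closest to that of a clustered histone gene. Among 8493 protein-coding genes of at least 10 CPM on average, the smallest Euclidean distances to it, in log2 CPM centred per gene, were those of H2AC4 (0.028), TRIM65 (0.03) and RAB34 (0.044). H2AC4, a clustered H2A gene, had 36.28 and 36.88 CPM with ILF2 shRNA and 55.71 and 54.22 CPM with non-silencing shRNA. With 4 libraries this likeness is a description of levels that differ mainly between the groups.

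MACROH2A2 (ENSG00000099284; chromosome 10, 71812552 to 71872036, plus strand), which encodes the related protein macroH2A2, was at or under the limit of detection in both groups. It had 1 and 0 fragments in the ILF2 shRNA libraries and 0 and 0 in the non-silencing libraries. In the 3 libraries with a count of 0, the limit of 3 fragments that such a count allows was 0.0433 CPM in ILF2 shRNA replicate 2 and 0.0405 and 0.0416 CPM in the non-silencing libraries, counting error only. At this depth a change of MACROH2A2 was not detectable, and nearly all macroH2A fragments came from MACROH2A1.

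H2AX (ENSG00000188486; chromosome 11, 118964564 to 118966177, minus strand), whose product carries the tail phosphorylated by ATM, ATR and DNA-PK at DNA breaks, had 151.1 and 152.5 CPM in the ILF2 shRNA libraries against 219.5 and 185.9 CPM in the non-silencing libraries. Both ILF2 shRNA libraries lay below both non-silencing libraries, and the non-silencing libraries differed more from each other than the ILF2 shRNA libraries did. The log2FC was -0.42 (SE 0.07, 95% interval -0.56 to -0.28; edgeR adjusted p = 6.1e-06). Leaving out non-silencing replicate 1, the higher of those libraries, gave -0.29, leaving out replicate 2 of that group gave -0.53, and the call held in all 13 alternative settings (adjusted p from 1.7e-08 to 0.046).

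The H2A.Z genes encode 2 near-identical proteins, H2A.Z.1 and H2A.Z.2, which SRCAP and EP400 complexes exchange for H2A. H2AZ2 (ENSG00000105968; chromosome 7, 44866390 to 44887682, minus strand) had 83.43 and 80.64 CPM in the ILF2 shRNA libraries against 102.6 and 106.8 CPM in the non-silencing libraries. The groups did not overlap, and H2AZ2 fell with a log2FC of -0.35 (SE 0.07, 95% interval -0.49 to -0.21; edgeR adjusted p = 8.4e-05). H2AZ1 (ENSG00000164032; chromosome 4, 100869243 to 100871545, minus strand), the most abundant member, had 310.4 and 288.1 CPM in the ILF2 shRNA libraries against 320.9 and 335.4 CPM in the non-silencing libraries. It too was lower in every ILF2 shRNA library, but its log2FC of -0.13 (SE 0.07, 95% interval -0.27 to 0.00) did not pass (edgeR adjusted p = 0.16). H2AZ1 passed without ILF2 shRNA replicate 1 (log2FC -0.18; edgeR adjusted p = 0.046) and once trends of GC content and exon length were removed (log2FC -0.16; adjusted p = 0.0049), with adjusted p from 0.0049 to 0.66 over all alternatives.

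The balance between the H2A.Z genes was compared within each library. H2AZ1 had 3.72 and 3.57 times the fragments of H2AZ2 with ILF2 shRNA, against 3.13 and 3.14 times with non-silencing shRNA, a difference of 0.22 on the log2 scale. The groups did not overlap, and the exact two-sided permutation test gave p = 0.33, the smallest that 2 libraries against 2 allow. The coding sequences of both genes differ at 76 of 387 bases, and their longest identical run is 23 bases, shorter than the 76-base reads. Pseudogenes with at least 90% identity over 300 coding bases took 421 and 461 fragments with ILF2 shRNA and 543 and 560 with non-silencing shRNA for H2AZ1, and 535 and 646 against 736 and 699 for H2AZ2. With these added to their parent genes the difference was 0.20.

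H2AJ (ENSG00000246705; chromosome 12, 14927270 to 14930936, plus strand), a mammalian H2A variant known to accumulate in senescent human fibroblasts, was among the least abundant members. It had 12.79 and 13.32 CPM in the ILF2 shRNA libraries against 13.77 and 13.39 CPM in the non-silencing libraries. The groups nearly touched, and the log2FC was -0.06 (SE 0.09; edgeR adjusted p = 0.73). Its 95% interval ran from -0.24 to 0.12, which holds both a fall and a rise.

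H3-3A and H3-3B encode the same H3.3 protein from different transcripts, whose coding sequences differ at 88 of 411 bases with a longest identical run of 14 bases. H3-3B (ENSG00000132475; chromosome 17, 73772515 to 73781974, minus strand) had 207.2 and 210.6 CPM in the ILF2 shRNA libraries against 231.6 and 235.6 CPM in the non-silencing libraries. Its groups did not overlap, but the log2FC of -0.16 (SE 0.07, 95% interval -0.29 to -0.03) missed the threshold (edgeR adjusted p = 0.076). H3-3B passed with DESeq2 (adjusted p = 0.045) and after the GC and length correction (adjusted p = 0.00074), and the adjusted p over all alternatives ran from 0.00074 to 0.45.

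H3-3A (ENSG00000163041; chromosome 1, 226249552 to 226259702, plus strand) had 16.21 and 13.16 CPM in the ILF2 shRNA libraries against 14.47 and 14.57 CPM in the non-silencing libraries. The ILF2 shRNA libraries lay on either side of the others, and the log2FC was 0.01 (SE 0.09, 95% interval -0.17 to 0.20; edgeR adjusted p = 0.94), or -0.14 without ILF2 shRNA replicate 1 and 0.16 without ILF2 shRNA replicate 2. The level of H3-3A is uncertain, because its coding sequence has 13 pseudogene copies of at least 90% identity. The copy H3P6 (chromosome 2, 175584505 to 175585526) matches the main H3-3A transcript at 99.9% over 1000 bases. H3P6 took 4442 and 4768 fragments with ILF2 shRNA and 4965 and 4960 with non-silencing shRNA, while H3-3A itself took 1033 and 911 against 1072 and 1050. Over that stretch the counts do not tell if a fragment came from H3-3A or from H3P6. With all 13 copies added, H3-3A had 87.0 and 82.8 CPM with ILF2 shRNA and 82.4 and 84.3 CPM with non-silencing shRNA, again with overlapping groups and a log2 ratio of the means of 0.03.

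H3-3A over H3-3B was 0.0782 and 0.0625 with ILF2 shRNA and 0.0625 and 0.0618 with non-silencing shRNA (exact two-sided permutation p = 0.33), so that the groups met at 0.0625. The difference of 0.17 on the log2 scale rested on ILF2 shRNA replicate 1, without which it was 0.01. With the pseudogene copies added to H3-3A it was 0.19.

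H1-10 (ENSG00000184897; chromosome 3, 129033615 to 129035120, minus strand) encodes H1.10, a linker histone that binds DNA between nucleosomes. It had 53.02 and 59.79 CPM in the ILF2 shRNA libraries against 74.16 and 62.72 CPM in the non-silencing libraries. The groups did not overlap, but the gap between them was smaller than that between the replicates of either group. The antisense gene H1-10-AS1 overlaps it on the other strand, and the counting used strand. The log2FC was -0.28 (SE 0.08, 95% interval -0.43 to -0.12; edgeR adjusted p = 0.0058). The call ended without non-silencing replicate 1 (log2FC -0.15; edgeR adjusted p = 0.42) and without ILF2 shRNA replicate 1 (log2FC -0.19; adjusted p = 0.078). The exons of H1-10 and H2AX had the highest GC content among the members, 68.7% and 66.4%, and non-silencing replicate 1 was the highest library for both. After the GC and length correction H1-10 stood at a log2FC of -0.21 and H2AX at -0.35 (edgeR adjusted p = 0.00076 and 7.7e-08). That correction called more genes of the whole table, 3031 higher and 2846 lower against 1960 and 1925. The part of GC content in the falls of H1-10 and H2AX was not tested.

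**Figure D2:**
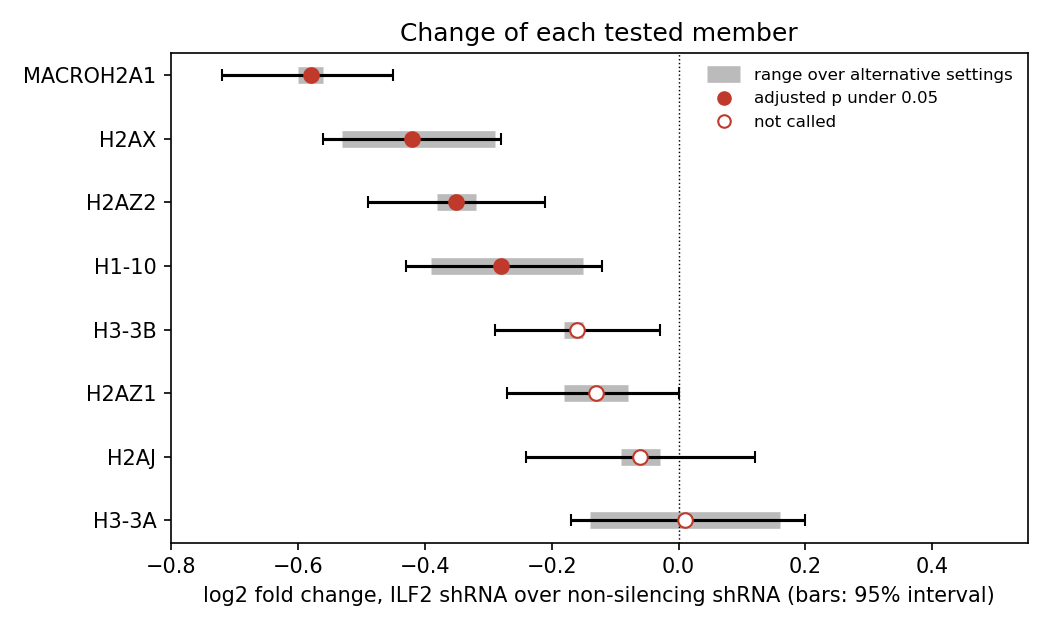
Log2FC of each tested member, ILF2 shRNA over non-silencing shRNA, with 95% intervals as thin bars and the range over 13 alternative settings as grey bars (filled points passed an adjusted p of 0.05). MACROH2A1 moved between -0.60 and -0.56 over the alternatives, H1-10 between -0.39 and -0.15, and H3-3A crossed 0.

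Levels of different members were compared per length, as CPM per kilobase of the main transcript. H2AZ1 stood highest, at 346 ± 18.2 with ILF2 shRNA and 379 ± 11.8 with non-silencing shRNA (SD, n = 2 each, as for all levels in this paragraph). H2AX followed at 95.4 ± 0.6 and 127 ± 14.9. MACROH2A1 had 77.6 ± 1.47 with ILF2 shRNA and 116 ± 0.168 with non-silencing shRNA, so that in non-silencing cells its level and that of H2AX differed by less than the spread of H2AX. In ILF2 shRNA cells MACROH2A1 stood level with H3-3B, which had 77.2 ± 0.895 there and 86.4 ± 1.05 in non-silencing cells. H1-10 had 37.2 ± 3.16 with ILF2 shRNA and 45.1 ± 5.33 with non-silencing shRNA. H2AZ2 had 27.1 ± 0.651 and 34.6 ± 0.99, H2AJ 21.1 ± 0.607 and 21.9 ± 0.43, and H3-3A 13.7 ± 2.01 and 13.6 ± 0.0664 in the same order of groups. The place of H3-3A in the order is uncertain, since fragments assigned to its pseudogene copies are left out. Before scaling by length H3-3A had 14.7 ± 2.16 and 14.5 ± 0.071 CPM, and 84.9 ± 2.97 and 83.4 ± 1.34 CPM with the copies added. The authors counted over all annotated exons, which span 17730 bases for MACROH2A1 against 1917 in its main transcript, so that its level over all exons was 8.39 ± 0.159 with ILF2 shRNA and 12.6 ± 0.0181 with non-silencing shRNA, below H2AZ2 at 17.3 ± 0.415 and 22.1 ± 0.631. The place of MACROH2A1 in the order depends on this choice of length. Over all exons H2AZ1 had 130 ± 6.84 and 142 ± 4.45 in the same order of groups, nearer to H2AX at 94.1 ± 0.592 and 126 ± 14.7. H1-10 (37.5 ± 3.18 and 45.4 ± 5.37) then stood above H3-3B (34.1 ± 0.395 and 38.1 ± 0.462). H3-3A (4.67 ± 0.685 and 4.62 ± 0.0226) stood above H2AJ (3.56 ± 0.103 and 3.7 ± 0.0727). Order and distances between members thus depend on the length used, and the comparison between groups does not.

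The clustered genes of the same histone types were set beside the replacement genes, to see how the supply of each type was divided. Of 30 clustered H2A, H3 and H1 genes found in the files by symbol, 26 were tested. Of these, 22 were called lower and 0 higher, beside 10.1% and 10.2% of all tested genes. Their median log2FC was -0.45. The annotation searched for the stem-loop held 34 such genes. Those not found in the files by symbol enter no count, sum or share here. The count of falls ran from 21 to 23 over the same 13 alternatives. By type the medians were -0.37 for H2A, -0.49 for H3 and -0.47 for H1. The summed replacement H2A genes stood at 79.7% of their non-silencing level in the ILF2 shRNA cells, and the summed clustered H2A genes at 75.4%. For H3 these values were 90.1% for the replacement genes and 70.7% for the clustered genes, and for H1 they were 82.4% and 71.6%.

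The replacement share of H3 fragments was higher with ILF2 shRNA, at 14.2% and 12.8%, than with non-silencing shRNA, at 10.7% and 11%. The means were 13.5% ± 0.984 and 10.9% ± 0.249 (SD, n = 2 each), a difference of 2.61 percentage points between groups that did not overlap. For H2A the shares were 40.1% and 38.1% with ILF2 shRNA and 37.6% and 37.9% with non-silencing shRNA, a difference of 1.34 points that was 0.32 without ILF2 shRNA replicate 1 and 2.35 without ILF2 shRNA replicate 2. For H1 they were 3.55% and 3.68% against 3.41% and 2.91%, a difference of 0.46 points that was 0.20 when non-silencing replicate 2 was left out and 0.71 when replicate 1 of that group was. The exact two-sided permutation test gave p = 0.33 for each of the 3 types, the smallest that it can give here, and also after adjustment over the 3. The 95% Wilson intervals of these shares reached at most 0.29 percentage points to either side and cover counting error only. Fragments that map to several clustered genes, those of H3P6 and those of clustered genes not found by symbol are missing from these sums. The shares therefore describe counted fragments and not protein supply. Scaled by exon length, the differences were 0.32 points for H3, 1.11 for H2A and 0.24 for H1. This scaling also changes the shares themselves, as exons span 6134 bases in H3-3B and 472 in the clustered gene H3C2. Differences in points before and after scaling are therefore not comparable in size.

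**Figure D3:**
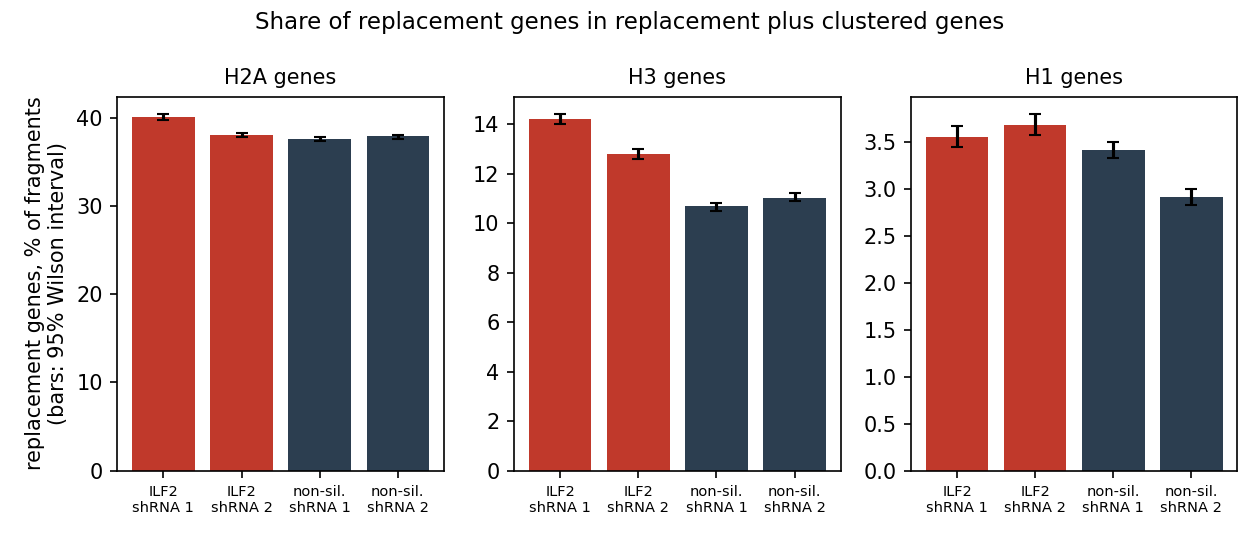
Replacement genes as a percentage of replacement plus clustered fragments for H2A, H3 and H1 genes in each library, ILF2 shRNA in red on the left and non-silencing shRNA in dark on the right, with 95% Wilson intervals. The H3 panel shows 14.2% and 12.8% beside 10.7% and 11%, a gap of 2.61 points in fragments. Scaled by exon length, which also lowers the H3 shares themselves, the gap was 0.32 points.

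CENPA, the centromeric H3 variant, is also deposited outside replication, by the chaperone encoded by HJURP. CENPA had 13.09 and 14.5 CPM in the ILF2 shRNA libraries against 18.91 and 18.53 CPM in the non-silencing libraries, and it fell (log2FC -0.44, SE 0.09; edgeR adjusted p = 0.0001). HJURP had 107.7 and 108.0 CPM against 137.3 and 140.2 CPM, and it fell as well (log2FC -0.36, SE 0.07; edgeR adjusted p = 3.8e-05). The groups did not overlap in either gene.

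Genes whose products deposit or remove H2A.Z were examined next. Of 14 genes tested, 2 were called lower and 0 higher, or 14.3% beside the background of 20.3%, and their median log2FC was -0.04. The fallers were ACTL6A, an actin-related subunit of several remodelling complexes, with 63.04 and 61.31 CPM against 71.65 and 74.42 CPM (log2FC -0.23; edgeR adjusted p = 0.013), and the ATPase gene RUVBL1, with a log2FC of -0.22 (edgeR adjusted p = 0.016). Without either of the non-silencing libraries 0 fell, without ILF2 shRNA replicate 2 it was 1, and without ILF2 shRNA replicate 1 there were 4 falls and 1 rise. With GC and length trends removed, the falls were 4 and the rises 1.

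Among 8 genes of H3.3 deposition, 1 was called higher and 0 lower, or 12.5% beside 20.3% of all tested genes. Their median log2FC was 0.05. The riser was ATRX, the remodeller that places H3.3 at telomeres and repeats with DAXX. It had 112.0 and 97.35 CPM in the ILF2 shRNA libraries against 82.78 and 89.31 CPM in the non-silencing libraries, a log2FC of 0.28 (SE 0.07; edgeR adjusted p = 0.0025). Its call ended without ILF2 shRNA replicate 1 (log2FC 0.18; adjusted p = 0.082) and without non-silencing replicate 1 (log2FC 0.23; adjusted p = 0.17). Without ILF2 shRNA replicate 1, 2 other genes of the list rose and 1 fell, without non-silencing replicate 1 0 rose, and with GC and length trends removed the rises were 3 and the falls 1.

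Of 13 genes of damage signalling around H2AX, 3 were called lower and 1 higher, or 30.8% beside 20.3% of all tested genes. Their median log2FC was -0.11. RNF168, a ubiquitin ligase that acts downstream of H2AX phosphorylation, had 32.98 and 29.67 CPM in the ILF2 shRNA libraries against 43.1 and 47.0 CPM in the non-silencing libraries (log2FC -0.52, SE 0.08; edgeR adjusted p = 4.1e-07). PRKDC, the gene of the DNA-PK catalytic subunit that phosphorylates H2AX, fell with a log2FC of -0.33 (edgeR adjusted p = 9.2e-05). The phosphatase gene EYA3 fell with one of -0.23 (edgeR adjusted p = 0.019), a call that ended without either non-silencing library or without ILF2 shRNA replicate 2. Its relative EYA1 rose at a low level, with 5.507 and 5.23 CPM against 3.523 and 3.372 CPM (log2FC 0.64, SE 0.12; edgeR adjusted p = 5.0e-05). Without ILF2 shRNA replicate 2 the list had 2 rises, and with GC and length trends removed it had 5 falls and 3 rises.

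Of the general and linker histone chaperones, 6 of 14 were called lower and 0 higher, or 42.9%. Among all tested genes 20.3% were called, 10.1% lower. The median log2FC of the list was -0.16. ASF1B, which hands new H3 and H4 to replication-coupled assembly, had 59.7 and 65.54 CPM in the ILF2 shRNA libraries against 89.21 and 85.02 CPM in the non-silencing libraries (log2FC -0.48, SE 0.07; edgeR adjusted p = 5.4e-07). HELLS, a remodeller linked to DNA methylation, fell with a log2FC of -0.46, the assembly factor gene CHAF1A with -0.29, and SSRP1, a subunit of the FACT complex, with -0.26 (edgeR adjusted p = 5.3e-06, 0.00094 and 0.0028). CHAF1B and SET, named outside the rule because they complete the count, each had a log2FC of -0.21 (edgeR adjusted p = 0.04 and 0.022). The call of CHAF1B ended with DESeq2 (adjusted p = 0.052) and whichever single library was left out (edgeR adjusted p from 0.079 to 0.26), and that of SET also without ILF2 shRNA replicate 2 (log2FC -0.14; adjusted p = 0.19). Leaving out non-silencing replicate 1 left 2 falls and leaving out non-silencing replicate 2 left 3, the calls of SSRP1, CHAF1B and SET ending in both cases and that of CHAF1A in the first. Leaving out ILF2 shRNA replicate 2 gave 2 rises.

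**Figure D4:**
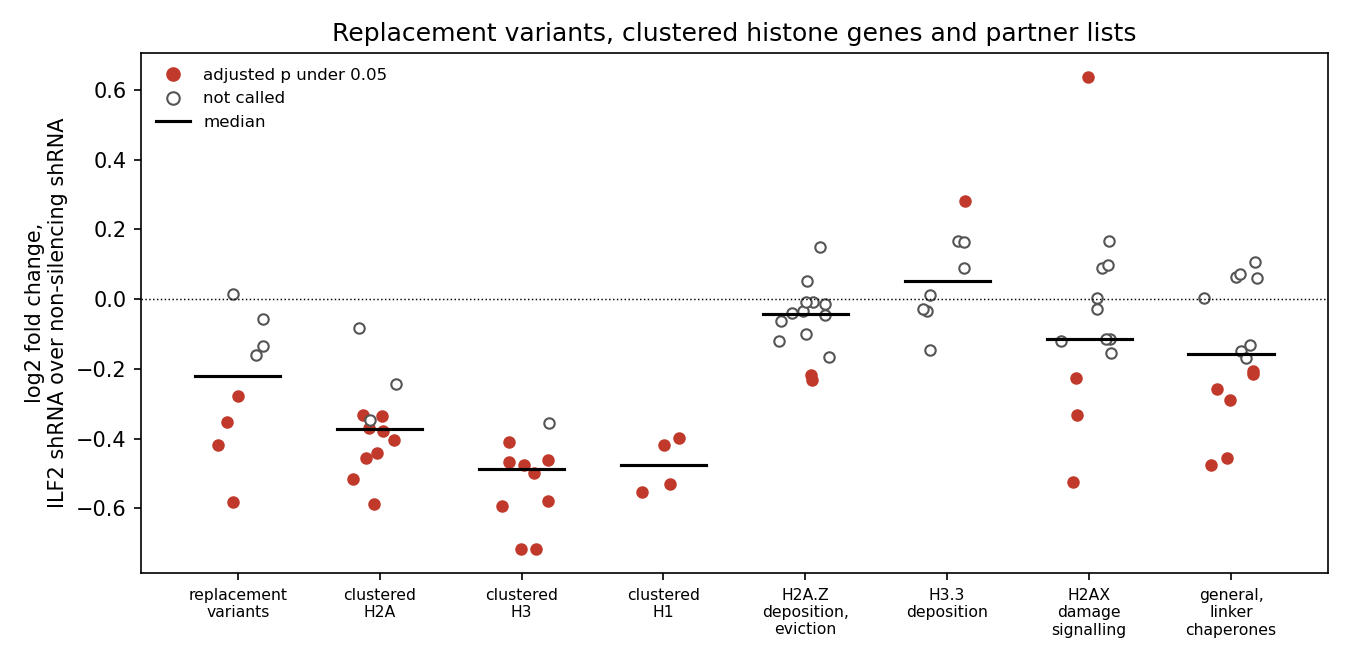
Log2FC, ILF2 shRNA over non-silencing shRNA, of each tested replacement variant, clustered H2A, H3 and H1 gene and gene of the 4 partner lists, with filled points for an adjusted p under 0.05 and lines at the medians. The replacement variants have a median of -0.22, between the clustered genes at -0.37 to -0.49 and the H2A.Z and H3.3 deposition lists at -0.04 and 0.05.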

How the data were processed

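The deposited values are raw fragment counts for each gene. Per the file headers, the authors ran featureCounts (Subread 1.4.6-p2) on paired fragments with strand setting 2, summing exons by gene of the Ensembl GRCh37 annotation. The submitters' processing notes list STAR 2.3.0 and SAMtools 0.1.19, while their design text names Tophat2. The recorded command sets no multi-mapping option, and by that program's default such fragments are not counted, which lowers genes with near-identical copies. Symbols were matched for 55665 of 63677 genes by Ensembl ID and for 376 by position (reciprocal overlap of at least 0.9). The test was edgeR's quasi-likelihood test (edgeR 4.0.16 under R 4.3.3), using TMM factors (0.97 to 1.016), filterByExpr at a minimum count of 10, robust dispersions, group as the only term and adjustment over 19142 genes. SE comes from the F statistic. There were 2 residual degrees of freedom and a biological coefficient of variation of 5.38%. Alternatives were DESeq2 1.42.0, limma-voom (limma 3.58.1), other normalisation factors and filters, removal of mitochondrial and abundant small RNA genes, a replicate block, a GC and length correction (mgcv 1.9.3) and each library left out. Pseudogenes were added to their parents as an alternative chosen after seeing the data. On simulated counts for this comparison (18793 genes tested), recovery was 28% for a log2 change of 0.25, 80% for 0.5 and 98% for 1. Of 164 calls, 11 fell on unchanged genes. The changed genes were drawn from those of at least 1 CPM, while the tested members had at least 12.8 CPM in every library. Recovery at the levels of the members was not measured. The chi-square per gene between replicates was 11.8 for ILF2 shRNA and 6.12 for non-silencing shRNA, above the 1 that counting noise alone would give, so no library was counted as a copy of another. Members and lists were chosen with earlier results of these data known. The genes named are all members, ILF2, CENPA, HJURP, up to 4 called genes of each list with the smallest adjusted p, and the 3 genes nearest in pattern to the member with the smallest adjusted p. Marker genes come from fixed lists, CHAF1B and SET were named after their values were seen, and H3P6, H3C1 and H1-2 are named as a copy or for their sequence. No protein-coding gene in GENCODE started within 1000 bases of a member's start on the other strand.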

Additional observations from a re-analysis of the deposited data

How the results depend on the processing

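The falls of MACROH2A1, H2AX and H2AZ2 kept their direction and their call in all 13 alternatives, and 0 members were called higher in any. The count of lower members ran from 3 to 4 when single libraries were left out, and was 5 with DESeq2 and 6 after the GC and length correction. Replicate numbers are labels only: deviations of same-numbered libraries had a correlation of -0.025, and with the numbers as a replicate block 3 members were lower, H1-10 having an adjusted p of 0.052, and 0 genes of the H2A.Z deposition list. The block also ended the calls of CHAF1B, SET and EYA3 (edgeR adjusted p = 0.19, 0.13 and 0.14). Over all genes the block called 1291 higher and 1297 lower, the GC and length correction 3031 and 2846, and the fits without non-silencing replicates 1 and 2 called 1070 and 1073, and 1029 and 1070, against 1960 and 1925. The sign of H3-3A turned to -0.14 without ILF2 shRNA replicate 1, against 0.16 without ILF2 shRNA replicate 2. After the GC and length correction the lists of H2A.Z deposition, H3.3 deposition and H2AX signalling had 1, 3 and 3 rises and 4, 1 and 5 falls. With single libraries left out, rises ran from 0 to 1, 0 to 2 and 1 to 2 in these lists and from 0 to 2 among chaperones, and falls from 0 to 4, 0 to 1, 2 to 4 and 2 to 7. The cause of these moves was not tested. The planned filter on clustered genes was not run for the ratios of sister genes, which no clustered gene enters. Depth limits MACROH2A2, and 2 libraries per group limit shares and ratios, whose test cannot pass 0.05.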
